A study of Mus musculus with 28 samples.

Results

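Microglia of 5xFAD mice were compared with microglia of wild-type (WT) mice kept under the same specific pathogen-free (SPF) housing, that is, with an ordinary but pathogen-screened bacterial flora. The comparison took every library whose title names the 5xFAD genotype and SPF housing (3 mice: FAD_SPF_1144, FAD_SPF_1146 and FAD_SPF_1148) and every library titled WT and SPF (5 mice: WT_SPF_912, WT_SPF_925, WT_SPF_926, WT_SPF_928 and WT_SPF_936), which are 8 of the 28 libraries of the series. The other 20 libraries came from germ-free (GF) mice, born and raised without bacteria, and from SPF-housed mice that drank a cocktail of antibiotics (ABX) for 8 weeks. They entered the fit to give a shared estimate of the spread between mice. 5xFAD mice are a model of Alzheimer's disease in which neurons express mutant human APP, the precursor of the amyloid-beta (Aβ) peptide, and a further mutant human transgene from the neuron-specific Thy-1 promoter. All 8 mice were 16 weeks old, on a C57BL/6J background and, per the study's methods, male, and the 5xFAD mice were heterozygous. The cells were taken from the hippocampus and sorted as CD11b+CD45low cells that were negative for a panel of lymphocyte, monocyte and neutrophil surface markers, and 1 library was made from each mouse. The comparison asks how microglia differ in a brain that deposits amyloid while the gut holds a normal flora. In such bulk samples, fewer cells of a type and less RNA per cell cannot be told apart.

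Microglia are the resident macrophages of the brain. In the healthy tissue they express a homeostatic programme that includes the purinergic receptor P2ry12, the fractalkine receptor Cx3cr1 and the membrane protein Tmem119. Around amyloid plaques, microglia of mouse models are known to take up a disease-associated state, in which signals through the lipid-sensing receptor Trem2 and its adapter Tyrobp accompany high expression of Apoe, Lpl, Cst7, Clec7a and Itgax. Genes of phagocytosis, the lysosome, lipid metabolism, antigen presentation and the interferon response are often described together with that state.

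The 8 libraries held 16939825 to 25751625 reads assigned to genes. Gene levels below are CPM, read counts scaled to a common library total and adjusted by TMM, and marker sums are CPM without the TMM step. A list of 9 microglial markers, among them Csf1r, P2ry12, Tmem119, Cx3cr1, Fcrls, Sall1, Itgam and Ptprc, made up 58100 to 62800 CPM in the WT mice and 48400 to 51200 CPM in the 5xFAD mice. The first principal component over the 8 mice held 39.3% of the variance and separated the genotypes, and the second, with 14.7%, ran from mice FAD_SPF_1146 and FAD_SPF_1148 at one end to mice WT_SPF_912 and FAD_SPF_1144 at the other. Mouse FAD_SPF_1144 differed from the other two 5xFAD mice by a chi-square per degree of freedom of 30.9 and 27.6 over genes, whereas mice FAD_SPF_1146 and FAD_SPF_1148 differed by 6.92. Among the WT mice, WT_SPF_912 differed from the others by 21.3 to 24.3, and the other pairs by 12.0 to 16.1. Counts that moved most without mouse FAD_SPF_1144 are also given without it. Among the markers of other cells, those of neutrophils summed to 65.6 to 274 CPM in the 5xFAD mice, with mouse FAD_SPF_1144 the highest and mouse FAD_SPF_1148 the lowest, and to at most 0.336 CPM in the WT mice. Those of border-associated macrophages, the macrophages of the meninges and vessels, summed to 17.3 to 30.9 CPM in the 5xFAD mice and 3.48 to 8.62 CPM in the WT mice. The mouse numbers of the labels fall into separate runs for WT and 5xFAD, and the genotype and any difference between these runs of animals cannot be told apart.

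Of 15298 genes tested, 699 (4.57%) passed an adjusted p of 0.05 in edgeR's quasi-likelihood test, with 571 (3.73%) higher and 128 (0.837%) lower in 5xFAD mice. The rises were larger than the falls. The median log2 fold change was 1.43 among the genes that rose and -0.53 among those that fell, and 143 genes rose by at least 3 on the log2 scale, against 1 (A430110C17Rik) that fell by as much. Among the risen genes, 34 had no read in any WT library, so their fitted changes are no bound. Levels of all 3 5xFAD mice lay above or below those of all 5 WT mice for 2591 of the genes tested (16.9%), above in 9.44% and below in 7.5%. This held for 562 of the 571 genes that rose and 126 of the 128 that fell. Without mouse FAD_SPF_1144 the number of called genes dropped to 437, of which 421 were among the 699. With library size as the only scaling, 533 genes were higher and 215 lower.

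**Figure D1:**
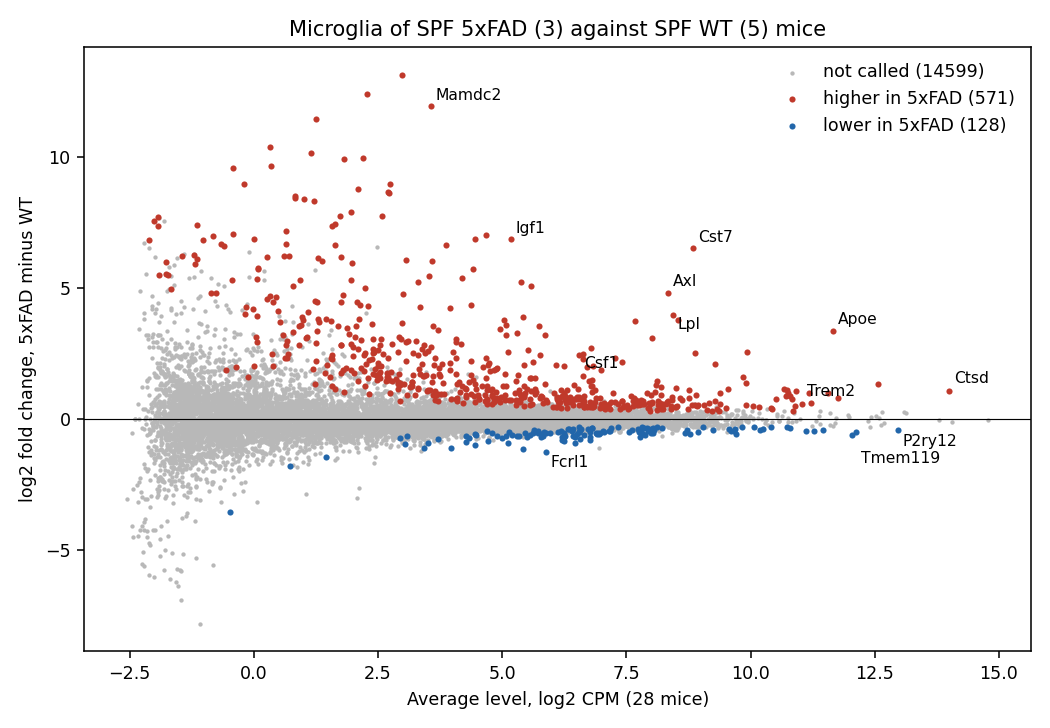
Each point is 1 of the 15298 genes tested, with its average level over all 28 mice in log2 CPM on the horizontal axis and its log2 fold change, 5xFAD minus WT under SPF housing, on the vertical axis. The 571 genes higher in 5xFAD (red) reach 13.2 on the log2 scale in Ngp, which had no WT read, while the 128 lower genes (blue) lie within 1 log2 unit of 0 except for 8, and grey points did not pass the test.

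The genes with the largest rises (among genes averaging 3 log2 CPM or more over all 28 mice) were low in WT microglia, at under 10 CPM in each WT mouse. They were Mamdc2, Baiap2l2, Ch25h, Igf1, Actr3b, Cst7, Lox, Etl4, Bhlhe40, F13a1, Rab7b and Cybb. Mamdc2, a gene for a secreted proteoglycan (chromosome 19, 23302609 to 23448322, minus strand of GRCm38), had no read in any WT mouse and 37.7, 20.3 and 16.2 CPM in 5xFAD mice FAD_SPF_1144, FAD_SPF_1146 and FAD_SPF_1148. Set against 3 counts in each WT library, its level was at least 176-fold higher (adjusted p = 4.81e-11). Igf1, which encodes insulin-like growth factor 1 (chromosome 10, 87858265 to 87937042, plus strand), was at 0.897, 0.345, 0.559, 0.603 and 0.0935 CPM in WT mice WT_SPF_912, WT_SPF_925, WT_SPF_926, WT_SPF_928 and WT_SPF_936 and at 74.9, 53.4 and 49.3 CPM in the 5xFAD mice. Its group means differed 118-fold (log2 fold change 6.86, SE 0.48, adjusted p = 1.53e-11). Cst7, the gene of the cathepsin inhibitor cystatin F (chromosome 2, 150570415 to 150578944, plus strand), had 7.83, 5.91, 7.65, 8.96 and 7.67 CPM in the WT mice and 856, 616 and 621 CPM in the 5xFAD mice. Its difference (log2 fold change 6.52, SE 0.26, adjusted p = 8.23e-17) set a 5xFAD mean of 698 ± 137 CPM 91.7-fold above the WT mean of 7.6 ± 1.09 CPM (SD, n = 3 and 5). Ch25h, the cholesterol 25-hydroxylase, was at 0.612, 0.0767, 0.0559, 0.0862 and 0.514 CPM in WT and 50.6, 33 and 16.2 CPM in 5xFAD mice (log2 fold change 6.89, SE 0.67, adjusted p = 1.42e-08). Mouse FAD_SPF_1144 was the highest and mouse FAD_SPF_1148 the lowest of the 3. Lox, the collagen-crosslinking lysyl oxidase, ranged from 0 to 0.559 CPM in WT and from 15.8 to 20.7 CPM in 5xFAD mice (log2 fold change 6.09, SE 0.73, adjusted p = 8.01e-07). Cybb, the catalytic subunit of the phagocyte NADPH oxidase, ranged from 0.46 to 6.15 CPM in WT, where mouse WT_SPF_926 was the highest, and from 59.1 to 77.1 CPM in 5xFAD mice (log2 fold change 5.24, SE 0.54, adjusted p = 5.7e-08). F13a1, a coagulation factor subunit that is also a marker of border-associated macrophages, was at 2.44, 6.4 and 7.04 CPM in the 5xFAD mice and at most 0.422 CPM in WT mice (log2 fold change 5.48, SE 1.16, adjusted p = 0.00265). Here the order was reversed, with mouse FAD_SPF_1144 the lowest and mouse FAD_SPF_1148 the highest. No SPF mouse reached 3 log2 CPM for F13a1, which met that average through other libraries. Its log2 fold change was 8.85 in ABX mice. Of the others, Baiap2l2, an adapter of membrane and actin, went from at most 0.388 CPM in WT to 34.4 to 45.4 CPM in 5xFAD mice, and Rab7b, a GTPase of late endosomes, from at most 1.25 CPM to 19.2 to 30.6 CPM.

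Genes of the disease-associated state rose nearly as a whole. Of 39 tested members of that list, 38 were higher in 5xFAD mice, none was lower, and the median log2 fold change was 2.32, against -0.027 over all genes tested and a background of 3.73% of genes higher. The list was drawn from microglia of amyloid models, and its choice was made with results of these mice known. Trem2, the lipid receptor at the head of the pathway, was at 1596, 1649, 1547, 1575 and 1428 CPM in WT and 2687, 2179 and 2154 CPM in 5xFAD mice, a 1.5-fold difference of means (log2 fold change 0.59, SE 0.11, adjusted p = 0.000601). Tyrobp, its signalling adapter, had 1040, 877, 876, 875 and 804 CPM in WT and 2127, 1927 and 1816 CPM in 5xFAD mice (log2 fold change 1.13, SE 0.15, adjusted p = 3.33e-06). Both genes were already well expressed in WT microglia and their changes were small beside those of the genes that follow. Apoe, the lipid carrier apolipoprotein E (chromosome 7, 19696109 to 19699188, minus strand), was at 278, 476, 444, 518 and 301 CPM in WT and 4880, 4204 and 3342 CPM in 5xFAD mice (log2 fold change 3.36, SE 0.25, adjusted p = 6.46e-11). Lpl, the lipoprotein lipase, was at 41.5, 35.4, 43.2, 29.1 and 39.4 CPM in WT and 782, 523 and 479 CPM in 5xFAD mice (log2 fold change 3.98, SE 0.25, adjusted p = 2.38e-12). Clec7a, the β-glucan receptor Dectin-1, was at 24.8, 33.2, 27.1, 37.1 and 25.1 CPM in WT and 544, 318 and 334 CPM in 5xFAD mice (log2 fold change 3.76, SE 0.21, adjusted p = 1.31e-13). Mouse FAD_SPF_1144 was the highest of the 3 for Apoe, Lpl and Clec7a, and no 5xFAD mouse overlapped a WT mouse for any of them.

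Itgax, the integrin CD11c, was at 5.67, 6.37, 10.1, 7.8 and 11.5 CPM in WT and 113, 98.5 and 81.4 CPM in 5xFAD mice (log2 fold change 3.57, SE 0.28, adjusted p = 3.05e-10). Axl, a receptor kinase for phosphatidylserine bridging proteins, was at 7.75, 28.4, 15.7, 26.2 and 14.7 CPM in WT and 510.0, 540.5 and 518 CPM in 5xFAD mice (log2 fold change 4.81, SE 0.29, adjusted p = 1.31e-12). The 3 5xFAD mice differed little in Axl, while WT mouse WT_SPF_912 lay well below the other WT mice. Spp1, the secreted matrix protein osteopontin, was at 1.51, 0.767, 3.19, 1.16 and 1.31 CPM in WT and 39.2, 29.5 and 26 CPM in 5xFAD mice (log2 fold change 4.35, SE 0.50, adjusted p = 3.11e-07). Csf1, a growth factor of macrophages, was at 21.5, 25.5, 21.9, 25.4 and 24.7 CPM in WT and 127, 145 and 118 CPM in 5xFAD mice (log2 fold change 2.45, SE 0.18, adjusted p = 6.24e-11). The member that missed the threshold was Gpx3, a secreted glutathione peroxidase, at 0 to 0.215 CPM in WT and 0.326 to 1.18 CPM in 5xFAD mice (log2 fold change 2.99, SE 0.90, adjusted p = 0.0508). Mouse FAD_SPF_1144 was the highest of the 3 5xFAD mice for 33 of the 39 genes, against 40.6% of all genes tested, and without it 37 of the 39 were called.

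**Figure D2:**
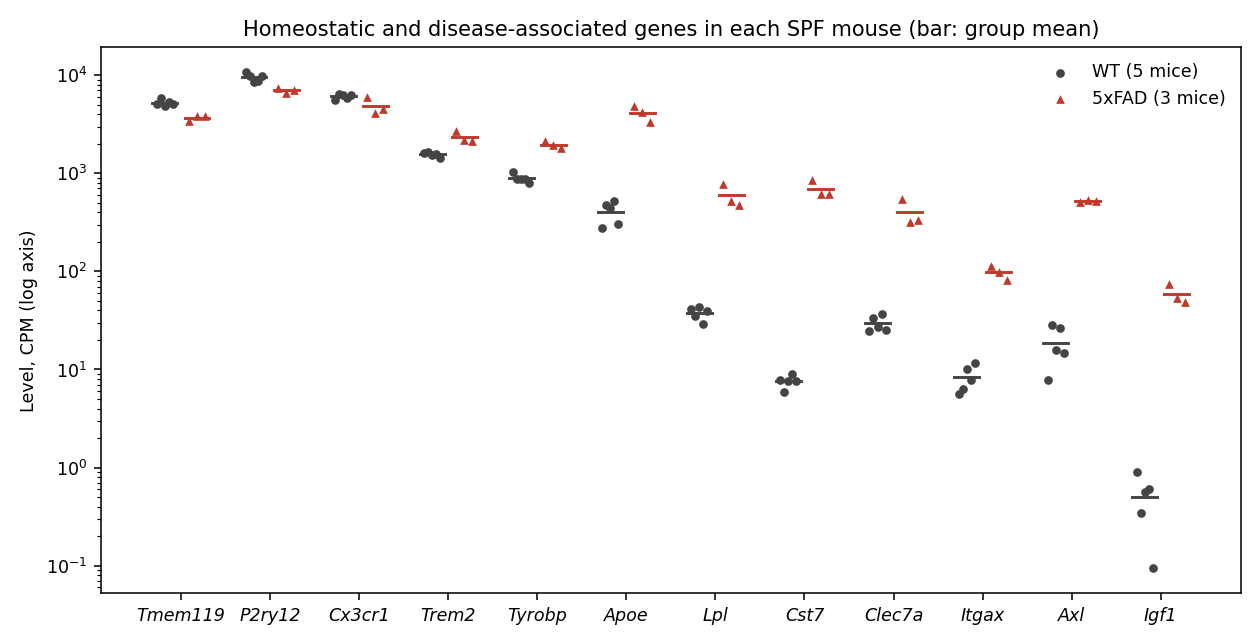
Levels in CPM on a log axis for 12 genes in each of the 5 WT (grey circles) and 3 5xFAD (red triangles) SPF mice, with a bar at the group mean. Tmem119 and P2ry12 lie lower in all 5xFAD mice, Cx3cr1 overlaps between the groups, and from Trem2 to Igf1 each 5xFAD mouse lies above each WT mouse.

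Of 29 homeostatic genes tested, 6 fell (Ecscr, Tmem119, P2ry13, P2ry12, Fcrls and Adgrg1), 1 rose (Serpine2) and 22 did not pass, with a median log2 fold change of -0.26. The background was 0.837% of genes lower. Tmem119 was at 5045, 5844, 4800, 5375 and 5059 CPM in WT and 3390, 3849 and 3864 CPM in 5xFAD mice, that is, 70.8% of the WT mean (log2 fold change -0.50, SE 0.11, adjusted p = 0.00335). P2ry12, the ADP receptor that guides microglial processes, was at 10740, 9908, 8469, 8724 and 9778 CPM in WT and 7415, 6631 and 7001 CPM in 5xFAD mice (log2 fold change -0.44, SE 0.12, adjusted p = 0.0255). Every 5xFAD mouse was below every WT mouse for both. Cx3cr1 was at 5614, 6425, 6291, 5844 and 6346 CPM in WT and 5993, 4077 and 4483 CPM in 5xFAD mice and did not pass (log2 fold change -0.33, SE 0.10, adjusted p = 0.0664), and mouse FAD_SPF_1144 lay within the WT range. Without that mouse Cx3cr1 was called lower, as it was in 3 further of 18 alternative fits, with library size scaling and with voomWithQualityWeights on all mice and on the 8 SPF mice. Its adjusted p ran from 1.16e-05 to 0.462, the latter without mouse FAD_SPF_1146. Ecscr, an endothelial and microglial sialomucin, had 262 to 326 CPM in WT and 174 to 204 CPM in 5xFAD mice (log2 fold change -0.60, SE 0.12, adjusted p = 0.00216). Serpine2, a protease inhibitor that stands on the homeostatic and the disease-associated list alike, was at 980.5 to 1036 CPM in WT and 1908 to 2340 CPM in 5xFAD mice (log2 fold change 1.05, SE 0.16, adjusted p = 5.95e-05). Without mouse FAD_SPF_1144, 3 of the 29 genes fell, and Tmem119 and P2ry12 were not among the calls (adjusted p = 0.0527 and 0.0697). More of them fell in other fits, with 8 in DESeq2, 10 with library size scaling, 12 on the 8 SPF mice and 18 with voomWithQualityWeights. The P2ry12 call was also lost without 4 other mice, with adjusted p up to 0.161 without mouse FAD_SPF_1146.

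Of 44 genes of lysosomal proteases and hydrolases tested, 24 rose, 1 fell and 19 did not pass (56.8% called, against 4.57% of all genes), with a median log2 fold change of 0.49. Ctsd, the aspartic protease cathepsin D, was at 9452, 10380, 9294, 9977 and 9312 CPM in WT and 22020, 18960 and 19510 CPM in 5xFAD mice (log2 fold change 1.06, SE 0.09, adjusted p = 7.83e-10). Ctsb, the cysteine protease cathepsin B, was at 3437, 3848, 3245, 3501 and 3084 CPM in WT and 9609, 8053 and 8303 CPM in 5xFAD mice (log2 fold change 1.34, SE 0.12, adjusted p = 6.16e-09). Both were higher in every 5xFAD mouse than in any WT mouse. Gusb, β-glucuronidase, ranged from 385 to 449.9 CPM in WT and from 851 to 1012 CPM in 5xFAD mice (log2 fold change 1.15, SE 0.10, adjusted p = 3.02e-09). Cd63, a tetraspanin of late endosomes, ranged from 107 to 128 CPM in WT and from 299 to 389 CPM in 5xFAD mice (log2 fold change 1.45, SE 0.17, adjusted p = 3.98e-07). The member that fell was Lgmn, the asparaginyl endopeptidase legumain, with 4344, 5596, 4699, 4395 and 4618 CPM in WT and 2807, 3243 and 3190 CPM in 5xFAD mice (log2 fold change -0.62, SE 0.11, adjusted p = 0.000398). Tfeb and Tfe3, transcription factors of lysosome biogenesis, had log2 fold changes of -0.16 and -0.30 and did not pass. Of 19 genes of the V-ATPase, the proton pump of the lysosome, 4 rose (21.1%, against 3.73% of all genes), among them Atp6v1a, with 62.9 to 93 CPM in WT and 109.6 to 131 CPM in 5xFAD mice (log2 fold change 0.72, SE 0.13, adjusted p = 0.000286), and 2 of the 19 without mouse FAD_SPF_1144. Of 35 core genes of mTOR signalling and autophagy, Rragd, a GTPase that tethers mTORC1 to lysosomes, rose (log2 fold change 2.50, SE 0.42, adjusted p = 0.000174), at 0.838 to 2.46 CPM in WT and 7.88 to 9.01 CPM in 5xFAD mice, and the other 34 did not pass, so that the share called (2.86%) was below that of all genes.

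Among 31 genes of lipid handling, 11 rose and 1, Lpcat3, fell (38.7% called, against 4.57% of all genes), with a median log2 fold change of 0.57. Alternative fits called 7 to 14 of the list higher and 0 to 2 lower, with 0 lower without mouse WT_SPF_925. The risen genes were Ch25h, Fabp3, Fabp5, Lpl, Cd36, Apoe, Acaca, Npc2, Scd2, Soat1 and Plin2. Fabp5, a fatty acid binding protein, ranged from 0.14 to 0.408 CPM in WT and from 4.62 to 6.15 CPM in 5xFAD mice (log2 fold change 4.30, SE 0.45, adjusted p = 7.41e-08). The cholesterol exporter gene Abca1 was at 352, 414, 509, 526 and 476 CPM in WT and 257, 509 and 491 CPM in 5xFAD mice (log2 fold change -0.12, SE 0.23, adjusted p = 0.919), and mouse FAD_SPF_1144 had the lowest level of all 8. Of 24 genes of cholesterol synthesis and uptake, 7 rose (among them Sqle, Insig1, Srebf2, Cyp51, Sc5d and Dhcr7) and none fell (29.2%, against 3.73% of all genes), with a median of 0.47. Without mouse FAD_SPF_1144, 5 rose. Srebf2, the transcription factor of the pathway, was at 17.8, 27.1, 21.7, 22.7 and 24.8 CPM in WT and 43.4, 49 and 44.1 CPM in 5xFAD mice (log2 fold change 0.99, SE 0.15, adjusted p = 4.51e-05). Its means differed 1.99-fold, and no 5xFAD mouse overlapped a WT mouse.

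**Figure D3:**
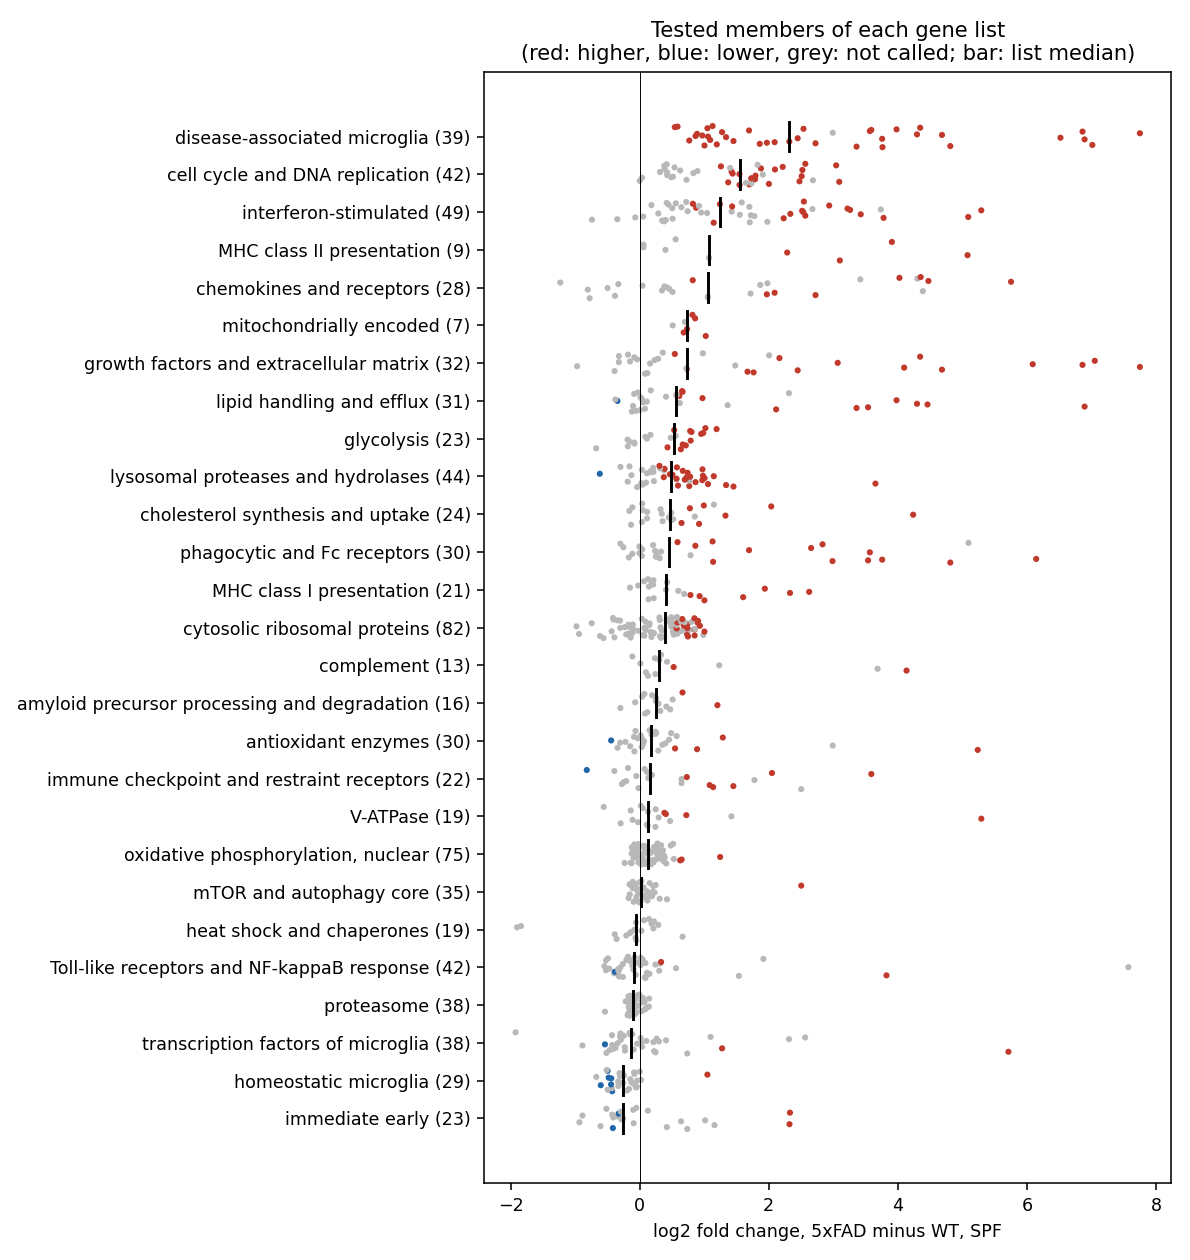
Log2 fold changes, 5xFAD minus WT under SPF housing, of the tested members of 27 gene lists, ordered by list median (black bar), with the number of tested members in brackets. Red points were called higher, blue points lower and grey points neither, and nearly all points of the disease-associated list are red and lie to the right of 0, while the homeostatic list lies just to the left of it. The list marked as antioxidant enzymes also holds the subunits of NADPH oxidase.

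Of 30 phagocytic and Fc receptor genes, 13 rose (43.3%, against 3.73% of all genes) and none fell (median log2 fold change 0.46). Besides Axl, Clec7a, Itgax, Trem2, Tyrobp and Cd36, the risen genes included the scavenger receptors Msr1, Colec12 and Scarb1, the sialic acid receptors Siglec1 and Cd22, and Cd300lf and Lgals3. Siglec1 was at 0.447 to 1.55 CPM in WT and 6.03 to 9.35 CPM in 5xFAD mice (log2 fold change 2.83, SE 0.60, adjusted p = 0.00261). The activating Fc receptor genes Fcgr1, Fcgr3, Fcgr4 and Fcer1g had log2 fold changes of -0.17, 0.03, 0.79 and 0.31 and did not pass. Fcgr4 was the nearest to the threshold (adjusted p = 0.0639). Of 13 complement genes, C3ar1, the receptor of the C3a fragment, and C2 rose (15.4%, against 3.73% of all genes), and 7 rose on the 8 SPF mice and 6 with voomWithQualityWeights. C3ar1 was at 335, 368, 362, 377 and 337 CPM in WT and 528, 521 and 488 CPM in 5xFAD mice (log2 fold change 0.53, SE 0.09, adjusted p = 0.000356). C1qa, an abundant subunit of the initiating complex, was at 3322 to 3904 CPM in WT and 3809 to 4332 CPM in 5xFAD mice (log2 fold change 0.13, SE 0.10, adjusted p = 0.688). C3, the central component, was at 0, 0.23, 0, 0 and 1.08 CPM in WT and 2.23, 3.79 and 4.25 CPM in 5xFAD mice and missed the threshold (log2 fold change 3.69, SE 1.20, adjusted p = 0.0807). C3 was called higher in 5 of 17 alternative fits, with no filter, on the 8 SPF mice, with voomWithQualityWeights, with both, and without mouse WT_SPF_936. Its adjusted p ran from 0.00052 to 0.195, the latter without mouse FAD_SPF_1148.

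Antigen presentation genes moved in both classes. Of 21 class I genes, 7 rose (H2-Q7, H2-Q6, Nlrc5, H2-D1, B2m, H2-K1 and H2-M3) and none fell (33.3%, against 3.73% of all genes), with a median of 0.41. The fit on the 8 SPF mice called 10 higher and voomWithQualityWeights 11. B2m, the light chain of class I molecules, was at 1764, 1354, 1378, 1597 and 1626 CPM in WT and 3394, 2810 and 3081 CPM in 5xFAD mice (log2 fold change 1.00, SE 0.16, adjusted p = 7.65e-05). H2-D1, a classical heavy chain, was at 402, 495, 362, 435 and 455 CPM in WT and 1448, 1157 and 1311 CPM in 5xFAD mice, a 3.04-fold difference of means (adjusted p = 8.84e-09). The groups did not overlap for either gene. Heavy chain genes are near copies of one another, and reads of H2-Q6 and H2-Q7 in particular may have been shared out between them. The transporter genes Tap1 and Tap2 and the immunoproteasome genes Psmb8 and Psmb9 did not pass, with log2 fold changes of 0.42, 0.07, 0.14 and -0.02. Of 9 class II genes, 4 rose: H2-Aa, H2-Eb1, Cd74 and H2-Ab1 (44.4%). The call of H2-Eb1 was lost with voomWithQualityWeights (adjusted p = 0.0794). Without mouse FAD_SPF_1144, 3 class II genes rose, and on the 8 SPF mice 6, and the fewest in any alternative fit were 2. Cd74, the invariant chain, was at 15.7, 17, 21.6, 22.6 and 23 CPM in WT and 156, 148 and 210.0 CPM in 5xFAD mice (log2 fold change 3.10, SE 0.55, adjusted p = 0.000385). H2-Aa was at 0.0408, 0.537, 0.168, 1.12 and 0.935 CPM in WT and 19.6, 13.9 and 24.5 CPM in 5xFAD mice (log2 fold change 5.08, SE 0.92, adjusted p = 0.000464). Mouse FAD_SPF_1148, not FAD_SPF_1144, was the highest for Cd74, H2-Aa and H2-Eb1. Border-associated macrophages and other antigen-presenting cells also express class II genes, and the border-associated macrophage markers summed to 17.3, 30.9 and 27.8 CPM in mice FAD_SPF_1144, FAD_SPF_1146 and FAD_SPF_1148. Their part in the class II result was not tested.

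Of 49 interferon-stimulated genes tested, 18 rose (36.7%, against 3.73% of all genes), none fell and 31 did not pass, and 46 had a positive log2 fold change, with a median of 1.24. Ifi27l2a was at 3.75, 2.42, 2.18, 3.88 and 4.63 CPM in WT and 48.3, 42.9 and 48.2 CPM in 5xFAD mice (log2 fold change 3.78, SE 0.34, adjusted p = 3.02e-09). Ifitm3, a membrane protein that blocks virus entry, was at 4, 3.84, 3.63, 3.14 and 7.25 CPM in WT and 40.6, 47.1 and 53.1 CPM in 5xFAD mice (log2 fold change 3.42, SE 0.52, adjusted p = 4.25e-05). Oasl2, of the oligoadenylate synthetase family, was at 2.61, 4.68, 4.75, 4.48 and 9.59 CPM in WT and 53.4, 52 and 40.3 CPM in 5xFAD mice (log2 fold change 3.22, SE 0.59, adjusted p = 0.00054). For each of these, mouse WT_SPF_936 was the highest WT mouse and lay below all 5xFAD mice. Over the whole list, mouse WT_SPF_936 was the highest of the 5 WT mice in 27 of 49 genes (55.1%), against 18.0% of all genes tested. Irf7, the transcription factor that amplifies the response, was at 3.14, 5.91, 2.85, 5.17 and 9.73 CPM in WT and 26.7, 26.9 and 27.7 CPM in 5xFAD mice (log2 fold change 2.33, SE 0.59, adjusted p = 0.015). Ifit3 was at 4.69, 7.79, 4.41, 5.43 and 10.8 CPM in WT and 23.4, 21.8 and 20.5 CPM in 5xFAD mice and did not pass (log2 fold change 1.72, SE 0.64, adjusted p = 0.147), although the groups did not overlap. Ifit3 was called higher in 3 of 18 alternative fits (voomWithQualityWeights, the 8 SPF mice and both), with adjusted p from 3.81e-05 to 0.35, the latter without mouse FAD_SPF_1144. The fit on the 8 SPF mice alone called 37 of the genes higher and 1 lower, and the fit of all mice without mouse FAD_SPF_1144 called 13 higher.

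Interferon-responsive promoters are known to carry a short element that factors of the Stat and Irf families bind. RefSeq promoter windows of 250 bases before to 50 bases after the start of transcription were used for 12 of the 18 risen genes and 26 of the 31 others. The interferon-stimulated response element was searched for as GAAANNGAAA on both strands. It stood in 6 of the 12 windows of risen genes (50.0%) and in 17 of the 26 windows of the others (65.4%), against 3.89% of the 10200 windows of all tested genes that had one. Stretches upstream of the start of 4 risen genes are shown to let the element be seen, in GRCm38.p6 coordinates and 5′ to 3′ on the strand of the gene, with matches of the element in capitals. They are Oas1a at chr5:120907526-120907605 (minus strand), Slfn5 at chr11:82951887-82952016 (plus strand), Bst2 at chr8:71537527-71537662 (minus strand) and Phf11b at chr14:59341331-59341440 (minus strand).
Oas1a: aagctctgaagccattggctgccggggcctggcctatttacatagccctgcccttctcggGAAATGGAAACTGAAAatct
Slfn5: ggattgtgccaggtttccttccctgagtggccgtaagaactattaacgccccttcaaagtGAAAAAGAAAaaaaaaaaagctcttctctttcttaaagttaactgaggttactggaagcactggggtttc
Bst2: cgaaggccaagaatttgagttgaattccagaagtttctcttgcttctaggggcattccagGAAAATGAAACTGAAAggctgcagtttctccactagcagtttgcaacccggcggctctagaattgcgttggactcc
Phf11b: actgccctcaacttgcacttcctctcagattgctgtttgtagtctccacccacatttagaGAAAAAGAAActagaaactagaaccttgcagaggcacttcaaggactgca
In Oas1a and Bst2 a pair of matches overlap. Oas1a, another oligoadenylate synthetase, was at 2.02 to 3.13 CPM in WT and 14.3 to 15.8 CPM in 5xFAD mice (log2 fold change 2.52, SE 0.45, adjusted p = 0.000375). Slfn5, a schlafen family gene, was at 0.449 to 5.05 CPM in WT and 17.3 to 20.6 CPM in 5xFAD mice (log2 fold change 2.94, SE 0.72, adjusted p = 0.0116). Bst2, the virus-tethering protein tetherin, was at 47.8 to 59 CPM in WT and 108 to 122 CPM in 5xFAD mice (log2 fold change 1.15, SE 0.18, adjusted p = 0.000102). Phf11b was at 9.83 to 15.9 CPM in WT and 24.5 to 25.5 CPM in 5xFAD mice (log2 fold change 0.87, SE 0.25, adjusted p = 0.0379). A match is a description of the sequence and does not show that a factor was bound.

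Genes of chemokines and their receptors gave 8 rises among 28 tested (28.6%, against 3.73% of all genes) and no fall. On the 8 SPF mice 10 rose and 2 fell, and with voomWithQualityWeights 12 and 3. The fewest rises of the list in any alternative fit were 4. Ccl3, a chemokine ligand of Ccr1, was at 15, 17.9, 23.7, 25.5 and 25 CPM in WT and 194, 129 and 102 CPM in 5xFAD mice (log2 fold change 2.72, SE 0.30, adjusted p = 1.79e-07). Ccl4, its neighbour in the genome, was at 21, 35.8, 31.1, 36.4 and 30.9 CPM in WT and 157, 109.5 and 98.1 CPM in 5xFAD mice (log2 fold change 1.97, SE 0.35, adjusted p = 0.000375). Ccl6 was at 246, 195, 175, 197 and 206 CPM in WT and 1087, 774 and 744 CPM in 5xFAD mice (log2 fold change 2.09, SE 0.18, adjusted p = 1.82e-09). All 3 were highest in mouse FAD_SPF_1144. The other risen members were Cxcl13, Cxcl14, Pf4, Cxcr4 and Cxcl16, and the receptor gene Ccr1 had a log2 fold change of -0.81 without passing. Of 42 genes of Toll-like receptor and NF-κB signalling, 2 rose and 1 fell, which is 7.14% against 4.57% of all genes. Tlr2 was at 239.6, 221, 246, 265 and 257 CPM in WT and 363, 300.5 and 264 CPM in 5xFAD mice (log2 fold change 0.33, SE 0.10, adjusted p = 0.0477), and mouse FAD_SPF_1148 overlapped WT mouse WT_SPF_928. The Tlr2 call was lost in 9 of 18 alternative fits, among them library size scaling. Myd88, the shared adapter of these receptors, was the gene that fell (106 to 123 CPM in WT, 82.7 to 91.5 CPM in 5xFAD, log2 fold change -0.39, SE 0.10, adjusted p = 0.0265). Its call was lost in 6 of 18 alternative fits, with adjusted p up to 0.179 without mouse FAD_SPF_1144. Il1b was at 5.42, 1.65, 2.63, 1.16 and 4.63 CPM in WT and 11.9, 8.71 and 6.4 CPM in 5xFAD mice (log2 fold change 1.54, SE 0.82, adjusted p = 0.427). Tnf was at 3.96, 4.45, 1.62, 3.75 and 8.75 CPM in WT and 6.19, 3.79 and 3.71 CPM in 5xFAD mice (log2 fold change 0.02, SE 0.56, adjusted p = 0.995). Neither cytokine gene passed the test. The groups overlapped for Tnf and did not for Il1b, which 3 alternative fits called higher (adjusted p = 0.0289 on the 8 SPF mice, 0.0349 with voomWithQualityWeights and 0.00481 with both) and DESeq2 did not (adjusted p = 0.451). Without mouse FAD_SPF_1144 no gene of the 42 was called, whereas 5 were higher and 4 lower on the 8 SPF mice.

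Restraint receptors of the immune system rose in 6 of 22 cases and fell in 1, which is 31.8% called against 4.57% of all genes, and voomWithQualityWeights called 9 higher and 4 lower. Lilrb4a, an inhibitory receptor with immunoreceptor tyrosine-based motifs, was at 3.06, 4.64, 6.31, 4.18 and 5.71 CPM in WT and 61.7, 55.3 and 54.8 CPM in 5xFAD mice (log2 fold change 3.59, SE 0.22, adjusted p = 1.7e-12). Pdcd1, the checkpoint receptor PD-1, was at 9.99, 16.5, 10.4, 16.6 and 10.2 CPM in WT and 64.7, 49.2 and 44.7 CPM in 5xFAD mice (log2 fold change 2.05, SE 0.26, adjusted p = 1.68e-06), and Cd274, its ligand PD-L1, also rose, by 1.08 on the log2 scale. Cd22, an inhibitory sialic acid receptor, was at 10.7 to 16 CPM in WT and 22.5 to 32.6 CPM in 5xFAD mice (log2 fold change 1.14, SE 0.20, adjusted p = 0.000319). Cd244 and Lag3 completed the risen genes. The gene that fell was Siglece, another inhibitory sialic acid receptor, at 130.0 to 141 CPM in WT and 65.3, 82.2 and 84.4 CPM in 5xFAD mice (log2 fold change -0.82, SE 0.17, adjusted p = 0.00179). Sialic acid receptors of the same family thus changed in opposite directions.

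Growth factor and matrix genes rose in 14 of 32 cases and none fell (43.8%, against 3.73% of all genes, median 0.73). Leaving out 1 mouse gave 10 to 13, with 12 without mouse FAD_SPF_1144 and 10 without mouse WT_SPF_925, and a filter of at least 10 counts in every library gave 7. Beside Igf1, Csf1, Spp1 and Lox, these were Gpnmb, Mmp9, Mmp12, Dkk2, Fn1, Plaur, Adam8, Adamts1, Fgf13 and Timp2. Gpnmb, a transmembrane glycoprotein of lipid-laden macrophages, had next to no reads in WT mice, at 0.0815, 0, 0, 0.0431 and 0 CPM, and was at 12.8, 3.64 and 4.62 CPM in 5xFAD mice (adjusted p = 0.000384). Mmp12, the macrophage elastase, was at 4, 0.46, 0.0559, 0.948 and 0 CPM in WT and 6.25, 12.2 and 9.68 CPM in 5xFAD mice (log2 fold change 3.07, SE 0.88, adjusted p = 0.0387). The transforming growth factor gene Tgfb1 and the sheddase genes Adam10 and Adam17 had log2 fold changes of -0.32, 0.08 and 0.12 and did not pass.

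Genes of amyloid precursor processing and Aβ degradation rose in 2 of 16 cases (12.5%, against 3.73% of all genes) and none fell, with 4 higher on the 8 SPF mice and 5 with voomWithQualityWeights. Aplp2, a relative of the amyloid precursor, was at 143, 178, 167, 180.4 and 154 CPM in WT and 418, 366 and 352 CPM in 5xFAD mice (log2 fold change 1.20, SE 0.10, adjusted p = 1.27e-09). Sorl1, a sorting receptor of the precursor, was at 47.8 to 71.9 CPM in WT and 78.3 to 110.5 CPM in 5xFAD mice (log2 fold change 0.66, SE 0.18, adjusted p = 0.0255), a call lost without any 1 of mice FAD_SPF_1146, FAD_SPF_1148, WT_SPF_912 and WT_SPF_928 (adjusted p up to 0.15). App itself, to which reads of the human transgene may align, was at 202, 223, 227, 236 and 220.0 CPM in WT and 296, 249.8 and 267 CPM in 5xFAD mice (log2 fold change 0.29, SE 0.10, adjusted p = 0.113). Each 5xFAD mouse lay above each WT mouse for App, but the difference did not pass. DESeq2, voomWithQualityWeights, edgeR on the 8 SPF mice and voomWithQualityWeights on these called App higher (adjusted p = 0.046, 0.0122, 0.0306 and 0.0207), and the other 14 alternatives did not (adjusted p up to 0.516, without mouse FAD_SPF_1144). The transgene is driven by a neuronal promoter, so App is a weak check of the genotype labels in sorted microglia.

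Of 38 transcription factor genes, 2 were higher and 1 lower in RNA level, which is 7.89% called against 4.57% of all genes. DESeq2 called 3 higher and 3 lower, library size scaling 2 and 4, the fit on the 8 SPF mice 3 and 6, and voomWithQualityWeights 6 and 8. Bhlhe40, a basic helix-loop-helix repressor, was at 0.612, 0.0767, 0.335, 0.474 and 1.4 CPM in WT and 39.7, 31.6 and 19.7 CPM in 5xFAD mice (log2 fold change 5.71, SE 0.52, adjusted p = 3.5e-09). Hif1a, which responds to low oxygen and to inflammatory signals, was at 160.4, 167, 173, 193 and 192 CPM in WT and 477, 413 and 397 CPM in 5xFAD mice (log2 fold change 1.28, SE 0.16, adjusted p = 1.34e-06). Maf, a factor of the homeostatic programme, fell, with 294 to 398 CPM in WT and 202 to 253 CPM in 5xFAD mice (log2 fold change -0.54, SE 0.15, adjusted p = 0.0289), a call that was lost when any 1 of 6 of the mice was left out, with adjusted p up to 0.251 without mouse FAD_SPF_1144. Spi1, which encodes the myeloid master factor PU.1, was at 302 to 358 CPM in WT and 283 to 302 CPM in 5xFAD mice (log2 fold change -0.15, SE 0.10, adjusted p = 0.577). Sall1, a factor specific to microglia in the brain, was at 726, 758, 802, 724 and 811 CPM in WT and 484, 720.0 and 652 CPM in 5xFAD mice and did not pass (log2 fold change -0.31, SE 0.10, adjusted p = 0.105), with mouse FAD_SPF_1144 the lowest of all. It was called lower with voomWithQualityWeights and without mouse FAD_SPF_1146, and its adjusted p ran from 0.0287 to 0.736, the latter without mouse FAD_SPF_1144. Of 23 immediate early genes, Egr2 and Maff rose and Btg2 and Klf6 fell (17.4% called, against 4.57% of all genes), with 6 higher and 5 lower on the 8 SPF mice. The falls were lost in 8 and 10 of 18 alternative fits, and the rise of Maff was lost without mouse FAD_SPF_1146. Egr2 was at 2.65, 4.57, 2.4, 6.46 and 4.02 CPM in WT and 29.8, 16 and 14.8 CPM in 5xFAD mice (log2 fold change 2.32, SE 0.40, adjusted p = 0.000244). Egr1 was at 4.92 to 15.5 CPM in WT and 17.4 to 32.4 CPM in 5xFAD mice and did not pass (log2 fold change 1.16, SE 0.50, adjusted p = 0.26). The groups did not overlap for Egr1. It was called higher on the 8 SPF mice by edgeR and by voomWithQualityWeights, and its adjusted p ran from 0.0166 to 0.742. Fos, which warm dissociation of tissue can raise, was at 0.224 to 2.84 CPM in WT and 0.541 to 1.18 CPM in 5xFAD mice (log2 fold change -0.09, SE 0.96, adjusted p = 0.985), and none of 19 heat shock genes passed in edgeR (2 had an unadjusted p under 0.05, DESeq2 called 0 and voomWithQualityWeights 1).

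Genes of glycolysis rose in 12 of 23 cases (52.2%, against 3.73% of all genes) and none fell (median 0.53). Pkm, which makes pyruvate, was at 133, 150.1, 139.6, 161 and 142 CPM in WT and 294, 283 and 285 CPM in 5xFAD mice (log2 fold change 0.98, SE 0.14, adjusted p = 1.15e-05). Ldha, which turns pyruvate into lactate, was at 132, 135, 124, 149 and 140.4 CPM in WT and 285, 210.0 and 212 CPM in 5xFAD mice (log2 fold change 0.79, SE 0.11, adjusted p = 1.19e-05). Tpi1, Pgk1, Gapdh, Gpi1, Aldoa and Eno1 rose as well, with the glucose transporters Slc2a1 and Slc2a3 and the lactate transporters Slc16a1 and Slc16a3. The Slc2a3 call (adjusted p = 0.044) was lost in 8 of 18 alternative fits, with library size scaling and without any 1 of 7 mice (adjusted p up to 0.318 without mouse FAD_SPF_1144). Hk2, the hexokinase that starts the pathway, was at 159 to 209.5 CPM in WT and 129 to 196 CPM in 5xFAD mice (log2 fold change -0.09, SE 0.15, adjusted p = 0.913). Without mouse FAD_SPF_1144, 6 of the 23 genes were called.

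Of 75 nuclear genes of oxidative phosphorylation, 3 rose (Ndufa1, Cox6a1 and Cox4i1), which is 4.0% against a background of 3.73%, and 1 of the 75 rose without mouse FAD_SPF_1144, 9 on the 8 SPF mice and 9 with voomWithQualityWeights. Of the 75, 67 were highest in mouse FAD_SPF_1144 among the 5xFAD mice. Of 7 mitochondrially encoded genes tested, 5 rose (71.4%), 0 without mouse FAD_SPF_1144 and 2 with library size scaling. The largest, mt-Co1, was at 151 to 271 CPM in WT and 588, 352 and 349 CPM in 5xFAD mice (log2 fold change 1.02, SE 0.23, adjusted p = 0.00557). Of 82 cytosolic ribosomal protein genes, 17 rose (20.7%, against 3.73% of all genes), 4 without mouse FAD_SPF_1144, 23 in DESeq2, 30 on the 8 SPF mice and 32 with voomWithQualityWeights, for example Rpl32, at 31.6 to 53 CPM in WT and 79.4 to 104 CPM in 5xFAD mice (log2 fold change 1.00, SE 0.19, adjusted p = 0.00103). Ribosomal protein genes have many near-identical pseudogenes, and their counts are uncertain. None of 38 proteasome genes passed in edgeR (1 had an unadjusted p under 0.05, DESeq2 called 0 and voomWithQualityWeights 6, all lower), and 37 of the 38 were highest of the 3 5xFAD mice in mouse FAD_SPF_1144. A list of 30 redox genes held antioxidant genes and the subunits of NADPH oxidase, which makes superoxide. Of its antioxidant genes Prdx4, Fth1 and Ftl1 rose, and of the oxidase subunits Cybb rose and Ncf4 fell (16.7% of the list called, against 4.57% of all genes). Without mouse FAD_SPF_1144, 3 of the list rose and none fell, while 7 rose and 2 fell on the 8 SPF mice. The fall of Ncf4 was also lost without FAD_SPF_1146, FAD_SPF_1148, WT_SPF_912, WT_SPF_925 or WT_SPF_926, and with no filter on low counts. Fth1, the ferritin heavy chain, was at 854 to 1064 CPM in WT and 1507 to 2158 CPM in 5xFAD mice (log2 fold change 0.89, SE 0.15, adjusted p = 0.00027).

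Of 42 cell cycle genes tested, 20 rose (47.6%, against 3.73% of all genes), none fell, and the median log2 fold change was 1.55. Top2a, the topoisomerase of dividing cells (chromosome 11, 98992943 to 99024189, minus strand), was at 6.77, 2.95, 0.782, 3.92 and 3.69 CPM in WT and 34.3, 23.9 and 32.5 CPM in 5xFAD mice (log2 fold change 3.04, SE 0.48, adjusted p = 7.95e-05). Mki67, which encodes the proliferation marker Ki-67, was at 2.94, 4.95, 1.51, 4.39 and 2.76 CPM in WT and 16.7, 22.5 and 18.2 CPM in 5xFAD mice (log2 fold change 2.52, SE 0.62, adjusted p = 0.011). Rrm2, a subunit of ribonucleotide reductase, was at 0.693 to 3.19 CPM in WT and 6.55 to 10.9 CPM in 5xFAD mice (log2 fold change 2.22, SE 0.53, adjusted p = 0.00931). The other risen members were Ccnb1, Uhrf1, Cenpe, Ccnb2, Nusap1, Birc5, Plk1, Cenpf, Cdca3, Cdk1, Aurkb, Aurka, Kif20a, Kif22, Mcm5, Ccna2 and Stmn1. Pcna, Mcm3, Mcm4 and Tyms had log2 fold changes of 0.39, 0.43, 0.32 and 0.42 and did not pass. Other fits called more of them, with 27 in DESeq2, 31 on the 8 SPF mice and 33 with voomWithQualityWeights. Between 12 and 19 of the 42 genes were called when 1 of the 8 mice was left out, with the fewest without mouse FAD_SPF_1148, which also ended the call of Rrm2 (adjusted p = 0.0548).

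Falls were smaller than rises. The 12 largest, among genes averaging 3 log2 CPM or more, were Fcrl1, Lfng, Zfp772, Camk2n1, Sec16b, Rasgrp4, Armc3, Mycl, Slco4a1, Gimap9, RP23-235I2.1 and Serpinf1. Fcrl1, an Fc receptor-like gene known from B cells (chromosome 3, 87376387 to 87402934, plus strand), was at 75.2, 78.5, 69.8, 64.3 and 62.9 CPM in WT and 30.9, 25.3 and 30.1 CPM in 5xFAD mice, or 41% of the WT mean (log2 fold change -1.29, SE 0.15, adjusted p = 8.15e-07). Lfng, a glycosyltransferase that modifies Notch, was at 44.1, 73.2, 73.7, 61.5 and 77.1 CPM in WT and 18.9, 34.8 and 36 CPM in 5xFAD mice (log2 fold change -1.14, SE 0.30, adjusted p = 0.0182). Slco4a1, an organic anion transporter, was at 88.9, 127, 110.4, 132 and 114 CPM in WT and 51.8, 69.3 and 61 CPM in 5xFAD mice (log2 fold change -0.91, SE 0.17, adjusted p = 0.000726). Serpinf1, the secreted pigment epithelium-derived factor, was at 110.3, 95.2, 76.2, 85.5 and 93.1 CPM in WT and 57.5, 52.8 and 43 CPM in 5xFAD mice (log2 fold change -0.85, SE 0.19, adjusted p = 0.0052). Mycl, a member of the Myc family, was at 29.2 to 57.2 CPM in WT and 15.1 to 25.9 CPM in 5xFAD mice (log2 fold change -0.92, SE 0.26, adjusted p = 0.0412). The levels of the 12 in 5xFAD mice ran from 41% of the WT mean for Fcrl1 to 55.5% for Serpinf1. The falls of Fcrl1, Slco4a1 and Gimap9 passed in every alternative fit, and the other 9 were lost in at least 1. The fall of Lfng was lost without mouse FAD_SPF_1144 (adjusted p = 0.206), that of Serpinf1 without mouse FAD_SPF_1148 (adjusted p = 0.073) and that of Mycl without any 1 of 5 mice (adjusted p up to 0.319).

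Marker transcripts of other cells were present in the SPF 5xFAD libraries. Of 12 neutrophil markers 7 were tested, and the granule genes Ngp, S100a8, S100a9, Camp, Ltf and Lcn2 were called higher (85.7%, against 3.73% of all genes). Ngp was at 94.9, 59.5 and 16.6 CPM in 5xFAD mice FAD_SPF_1144, FAD_SPF_1146 and FAD_SPF_1148 and had no read in any WT mouse, which made it at least 406-fold higher against 3 counts in each WT library (adjusted p = 0.00822). S100a9 was at 50.4, 35.3 and 14.6 CPM in the 5xFAD mice and at most 0.168 CPM in WT (adjusted p = 0.00349). Other neutrophil genes were at or near 0: Mmp8 had no read in any of the 8 mice, and Ly6g, Elane, Mpo, Cxcr2 and Retnlg were at most at 0.266 CPM in any of them. The 12 markers summed to 151 CPM in 1 ABX 5xFAD mouse (FAD_ABX_1151), whose number and description continue the run of the 3 SPF 5xFAD mice. They summed to at most 1.38 CPM in the remaining 24 libraries of the series, among them the other 10 5xFAD mice. The antibodies of the sort included neutrophil surface markers. Of 10 border-associated macrophage markers tested, 6 rose (F13a1, Cd163, Lyve1, Ms4a7, Pf4 and Cd209f), against 3.73% of all genes. Mrc1, a commonly used marker of the same list, did not pass. It was at 3.18, 3.8, 7.54, 6.72 and 5.47 CPM in WT and 5.27, 14.6 and 10.1 CPM in 5xFAD mice (log2 fold change 0.91, SE 0.53, adjusted p = 0.491). In ABX 5xFAD mice these markers summed to 35.9 to 264 CPM, above the 17.3 to 30.9 CPM of SPF 5xFAD mice, in GF 5xFAD mice to 10.4 to 84.9 CPM, in GF WT mice to 10.8 to 44.8 CPM and in ABX WT mice to 3.88 to 6.0 CPM. The 8 monocyte markers summed to 6.97 to 9.63 CPM in the WT and 20.2 to 40.1 CPM in the 5xFAD mice. Of 7 tested, Chil3 and Fn1 rose (28.6%, against 3.73% of all genes), while Ccr2 had a log2 fold change of 0.46 and did not pass. Ly6c2, which was not tested, was at most 1.01 CPM. The part of such cells in the other results was not tested. Markers of neurons, astrocytes, oligodendrocytes and B cells had overlapping sums in both genotypes and none of theirs passed the test. Those of endothelial cells and pericytes summed to 40.7 to 53.3 CPM in the WT and 29.3 to 41.4 CPM in the 5xFAD mice. Of 6 tested, Flt1 was called higher (16.7%, against 3.73% of all genes), and Cldn5, Ly6c1, Slco1a4 and Vtn were at 0 in all 8 mice. T and NK cell markers summed to 0 to 0.66 CPM in the WT mice and 0.904 to 2.33 CPM in the 5xFAD mice, without overlap, and of 10 markers 2 were tested, both with an unadjusted p under 0.05 and neither passing. Erythrocyte markers summed to at most 0.385 CPM in any of the 8 mice, and none was tested.

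**Figure D4:**
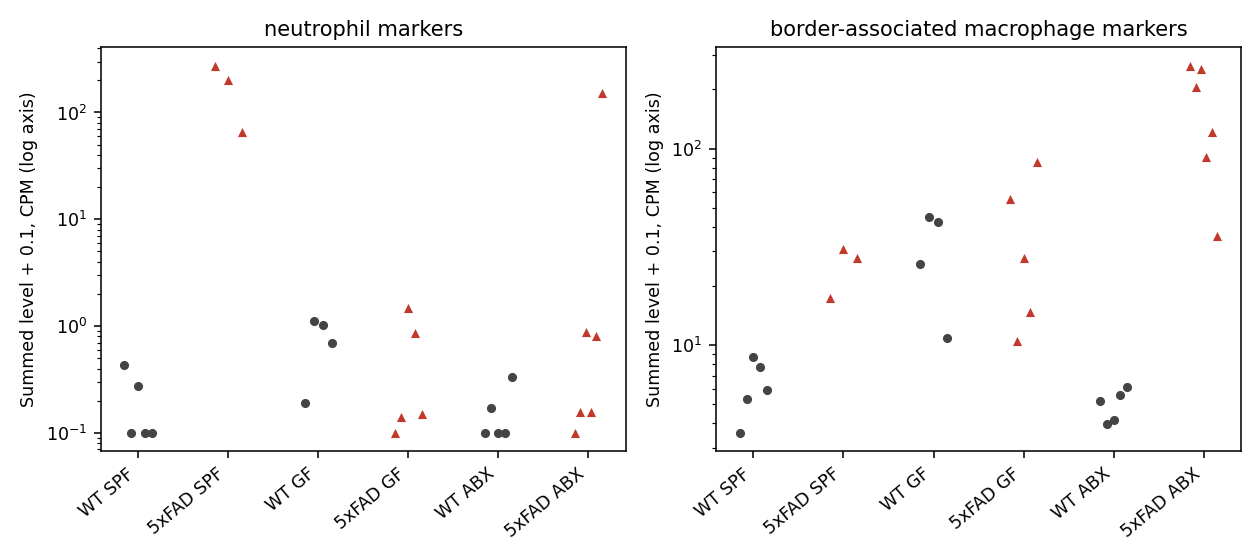
Summed level of 12 neutrophil markers (left) and 10 border-associated macrophage markers (right) in CPM plus 0.1 on a log axis, 1 point per mouse for the 6 groups of the series (circles WT, triangles 5xFAD). The 3 SPF 5xFAD mice hold 65.6 to 274 CPM of neutrophil transcripts and 1 ABX 5xFAD mouse 151 CPM, while all other mice stay at or under 1.38 CPM.

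The same genes were then read in GF and ABX mice, each with WT controls of its own. Of the 571 genes higher under SPF housing, 555 had the same sign in GF mice and 465 passed the test there in that direction, and 567 and 502 did so in ABX mice. The opposite call was made in GF mice for 1 of the 571, Afm, named here after its values were seen and at 4.46, 0.246 and 4.79 CPM in the SPF 5xFAD and 0 CPM in the SPF WT mice. The background of genes higher was 9.43% in GF and 9.45% in ABX mice. Of the 128 lower genes, 118 had the same sign and 85 passed in GF mice, and 124 and 66 in ABX mice, against 6.2% and 4.98% of genes lower. A test of the difference itself found no gene whose 5xFAD effect differed between GF and SPF mice or between ABX and SPF mice in edgeR's test (smallest adjusted p = 0.0724 and 0.704, with 1304 and 1032 genes under an unadjusted p of 0.05). The GF values include mouse FAD_GF_201, which is 5xFAD by its title and genotype label and WT by its description. Its microglial markers summed to 54700 CPM, against 44500 to 46000 CPM in the other GF 5xFAD mice and 57900 to 61400 CPM in the GF WT mice, and without it 8 genes differed between GF and SPF mice. DESeq2 called 25 genes and 1 gene for these differences, and voomWithQualityWeights 116 and 14. Cst7 rose by 6.52, 7.10 and 6.36 on the log2 scale in SPF, GF and ABX mice, and Apoe by 3.36, 3.53 and 3.67. Some effects were less alike. H2-Aa had log2 fold changes of 5.08 (SE 0.92) in SPF, 0.91 (SE 0.67) in GF and 6.25 (SE 0.81) in ABX mice, and its difference between GF and SPF did not pass (adjusted p = 0.321). F13a1 had 5.48, 0.75 and 8.85 in the same order (adjusted p of the GF difference 0.396). Top2a had 3.04 (SE 0.48), 1.09 (SE 0.45) and 1.94 (SE 0.42), with an adjusted p of 0.443 for GF against SPF. Lgmn fell by 0.62 on the log2 scale under SPF housing and had log2 fold changes of -0.11 in GF and 0.04 in ABX mice, with adjusted p of 0.393 and 0.704 for the differences. Of the disease-associated list, 38, 38 and 39 of 39 genes rose in SPF, GF and ABX mice. Cell cycle genes passed in 20, 15 and 29 of 42 cases in SPF, GF and ABX mice. Class II genes did so in 4, 3 and 7 of 9, and homeostatic falls numbered 6, 13 and 12 of 29. In the same order, 3.73%, 9.43% and 9.45% of all genes tested were higher and 0.837%, 6.2% and 4.98% lower. The 5xFAD and WT mice numbered 3 and 5, 5 and 4, and 6 and 5, so these counts do not compare the housings.

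**Figure D5:**
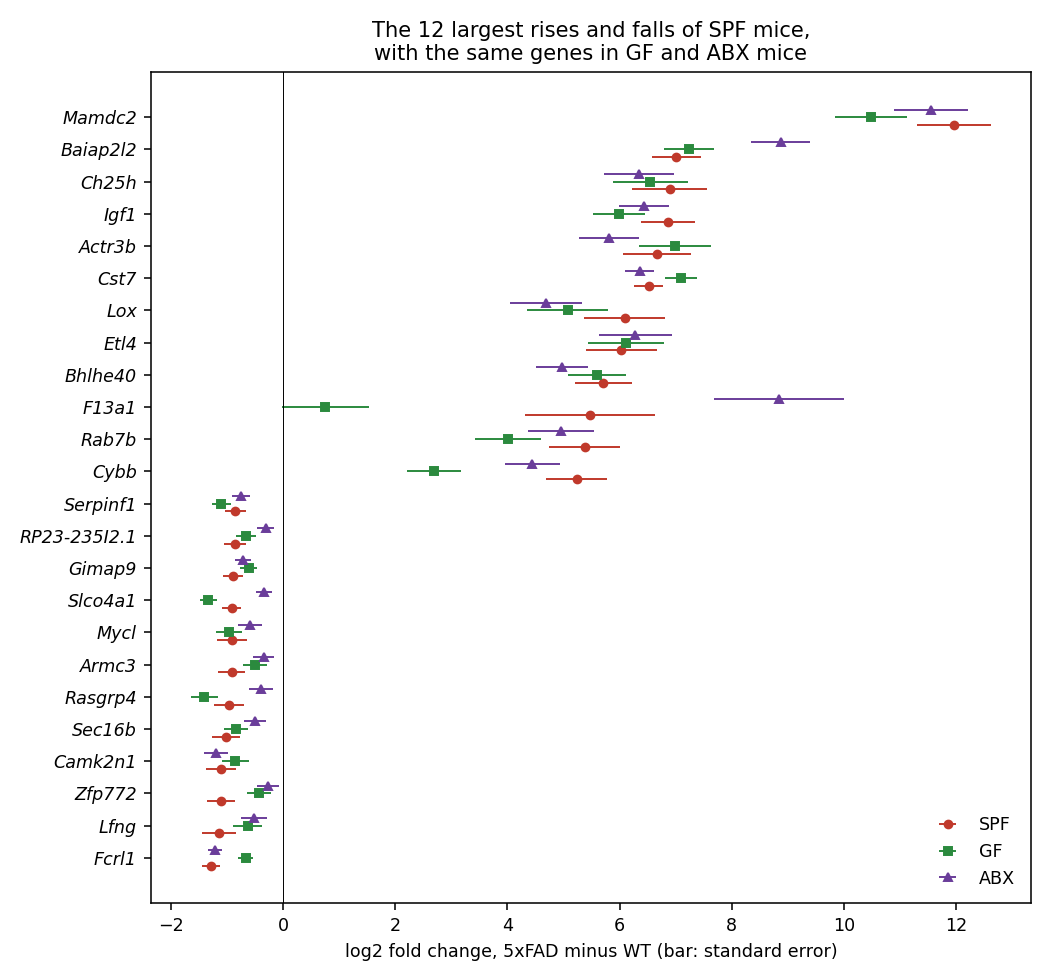
Fitted log2 fold change, 5xFAD minus WT, with its standard error for the 12 largest rises and 12 largest falls of SPF mice, shown for SPF (circles), GF (squares) and ABX (triangles) mice. F13a1 lies near 0 in GF mice at 0.75, and the 12 falls lie to the left of 0 in all 3 housings.

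The 3 SPF 5xFAD mice also differed among themselves. Mouse FAD_SPF_1144 was the highest of the 3 for 374 of the 571 risen genes (65.5%), against 40.6% of all genes tested, and mouse FAD_SPF_1148 the lowest for 266 (46.6%). Among the 128 fallen genes, mouse FAD_SPF_1144 was the lowest for 62 (48.4%). The order was not the same for every gene: Apoe and Itgax were highest in mouse FAD_SPF_1144, Ifitm3 and Cd74 in mouse FAD_SPF_1148, and Axl was nearly level at 510.0 to 540.5 CPM. Mouse FAD_SPF_1144 also held the highest neutrophil and monocyte marker sums and the lowest sum of border-associated macrophage markers. The monocyte order was set by Chil3, at 29.6, 15.1 and 6.22 CPM in mice FAD_SPF_1144, FAD_SPF_1146 and FAD_SPF_1148. Of 7 monocyte markers tested, 3 were highest in mouse FAD_SPF_1144, whereas Ccr2 (7.55, 8.46 and 8.66 CPM) and Fn1 (0.479, 1.58 and 3.9 CPM) were lowest there. Whether these sums bear on the higher levels of mouse FAD_SPF_1144 was not tested.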

How the data were processed

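RNA of sorted hippocampal microglia was amplified with the SMARTer v4 kit and sequenced as single reads. According to the study's methods and the submitters' processing notes, the authors aligned reads with STAR 2.7.2 and counted them per gene with featureCounts 1.6.2. The deposited values are raw counts of reads per gene symbol. The notes name a human build and the methods GRCm38. The symbols are those of mouse genes, and 46484 of 48587 matched a mouse gene table. Coordinates are those of GRCm38 genes of that name. The 92 spike-in rows, with at most 12 reads in a library, were set aside.

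Counts of all 28 mice (14441610 to 29977395 reads in genes) were fitted with 1 term for each of 6 groups by edgeR 4.0.16 (TMM, filterByExpr at 10 reads minimum and 15 in total, quasi-likelihood test, Benjamini-Hochberg adjustment over all 15298 genes, threshold 0.05). Levels are CPM, with SD over mice. The differences of the 5xFAD effect between housings were tested as interactions. On simulated counts for this comparison the procedure recovered 25.4%, 85.1% and 98.5% of genes changed by 0.5, 1 and 2 on the log2 scale. Of its calls, 4.14% were false. The simulation changed 67, 67 and 66 of 14926 genes by these amounts, up or down at random. It changed no gene of low level and held no mouse that stood apart, so these rates need not hold for the real counts. Alternatives were DESeq2 1.42.0, voomWithQualityWeights of limma 3.58.1 (which the study used), RLE and library size scaling, other filters, a threshold of 0.01, other sets of mice and each SPF mouse left out.

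Genes are named as the 12 largest rises and falls averaging 3 log2 CPM or more over the 28 mice. Also named are the key genes and the 3 largest called members of each of 27 function lists, App, and markers of 11 cell types. Other list members are named to complete a count and were chosen after their values were seen. The comparison and the lists were chosen with earlier results of these data known. Promoter sequences are from RefSeq on GRCm38.p6. Genes with near-identical copies (H2-Q6 and H2-Q7, Oas1a and Oas1g, ribosomal proteins, ferritins) have uncertain counts. A further gene that could check the transgenes is not reported here.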

Additional observations from a re-analysis of the deposited data

Results flagged for a closer look

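Among 106 named genes, the 5 SPF WT mice were checked for a mouse that stood apart from the rest, and 2 genes had one, where chance gives such a mouse in about 5% of groups. H2-Q6, a class I heavy chain gene, was at 3.42, 3.03, 2.9, 3.53 and 9.17 CPM in WT mice WT_SPF_912, WT_SPF_925, WT_SPF_926, WT_SPF_928 and WT_SPF_936, and the gap below mouse WT_SPF_936 made up 0.832 of the range on the log2 scale. Ifitm3, an interferon-stimulated gene, was at 4, 3.84, 3.63, 3.14 and 7.25 CPM in the same mice, and the gap below mouse WT_SPF_936 made up 0.715 of the range. Both genes were higher in each 5xFAD mouse than in mouse WT_SPF_936, with H2-Q6 at 21, 17.6 and 28 CPM and Ifitm3 at 40.6, 47.1 and 53.1 CPM. Reads of H2-Q6 may be shared with its near copies.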

How the results depend on the processing

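Of 106 named genes, 92 were called, of which 63 passed in every one of the 18 alternatives that tested them and 29 lost the call in at least 1 without a change of sign; 22 of these were lost without mouse FAD_SPF_1144. Against 699 genes called (571 higher, 128 lower), voomWithQualityWeights called 2154 (1292, 862), the 8 SPF mice alone 1340 (935, 405), both together 1892 (1240, 652), and a threshold of 0.01 gave 421 (378, 43). The lower genes numbered 215 with library size scaling (71.3% of its calls were higher, against 81.7%), 75 with no filter and 211 with DESeq2. Leaving out 1 SPF mouse gave 437 to 596 genes, 391 to 511 of them higher and 46 to 96 lower, with 437 and 46 without mouse FAD_SPF_1144. For differences between housings, in place of 0, GF against SPF gave 2 genes with no filter, 25 with DESeq2, 116 with voomWithQualityWeights, 3 without ABX mice FAD_ABX_1151 and FAD_ABX_1482, 8 without GF mouse FAD_GF_201 and 0 to 1 without 1 SPF mouse (1 without WT mouse WT_SPF_926 or WT_SPF_936). ABX against SPF gave 1, 14 and 1 with DESeq2, voomWithQualityWeights and without mice FAD_ABX_1151 and FAD_ABX_1482.

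The sign changed for 4 genes, none called. With voomWithQualityWeights on all mice and on the 8, Abca1 had 0.0231 and 0.0342, Fos 0.11 and 0.122, Hk2 0.042 and 0.0526, and Tnf -0.101 and -0.0953, and Tnf had -0.0299 with library size. When 1 mouse was left out, Abca1 ran from -0.271 to 0.141 (the latter without mouse FAD_SPF_1144), Fos from -0.324 to 0.819 (without mouse WT_SPF_925), Hk2 from -0.19 to 0.0833 (without mouse FAD_SPF_1144) and Tnf from -0.261 (without mouse FAD_SPF_1144) to 0.399. The cause of these differences was not tested. The study's methods name non-transgenic littermates as controls. The labels give no litter, so no paired analysis was possible. At this depth a WT level under 0.139 CPM is within 3 counts.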

Other observations

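Some further genes, chosen after their values were seen, are given as values. The sulphotransferase Chst2 was at 3.67, 5.22, 5.08, 6.72 and 4.26 CPM in WT and 51.5, 51.4 and 44.9 CPM in 5xFAD mice (log2 fold change 3.30, SE 0.27, adjusted p = 4.28e-10). Xylt1, a xylosyltransferase gene of proteoglycan synthesis, ranged from 4.08 to 5.13 CPM in WT and from 25.8 to 32.4 CPM in 5xFAD mice (log2 fold change 2.56, SE 0.28, adjusted p = 1.24e-07). Sulf2, an extracellular sulphatase, ranged from 11.3 to 18.6 CPM and from 72.8 to 98 CPM (log2 fold change 2.43, SE 0.23, adjusted p = 6.91e-09). Ext1, a gene for a heparan sulphate polymerase, did not pass (log2 fold change 0.23, SE 0.27, adjusted p = 0.831).

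In serine synthesis, Psat1 rose (log2 fold change 2.48, SE 0.16, adjusted p = 1.98e-12), at 20.5 to 27.1 CPM in WT and 116 to 166 CPM in 5xFAD mice, whereas Phgdh, the first enzyme of the pathway, did not pass (log2 fold change -0.07, SE 0.14, adjusted p = 0.928). Among the smaller falls, the B cell adapter gene Bank1 was at 104 to 134 CPM in WT and 59.1 to 75.5 CPM in 5xFAD mice (log2 fold change -0.79, SE 0.18, adjusted p = 0.0063), and the costimulatory ligand gene Icosl at 111 to 141 CPM and 65.4 to 85.6 CPM (log2 fold change -0.69, SE 0.15, adjusted p = 0.00265). Of 7 B cell markers, 2 could be tested and neither passed.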
